A study of Zea mays with 109 samples.

Results

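Maize builds its shoot from the shoot apical meristem (SAM), the dome of stem cells at the shoot tip. During vegetative growth the SAM gives rise to leaves and stem. At the floral transition it becomes the inflorescence meristem of the tassel, the male inflorescence, while the ear, the female inflorescence, develops from an axillary meristem lower on the stem. Total RNA of 3 SAM libraries was compared here with that of 6 inflorescence libraries. These are 9 of the 26 total RNA libraries and of the 109 samples in all. The labels name ears and tassels by length, not as meristems. The comparison is thus between tissues and does not follow 1 meristem through the transition. For a transcript, rise and fall below mean a higher or lower level in inflorescence than in SAM. The libraries were chosen by the tissue names in the labels, not by any measured value. The SAM group held SAM(V1), SAM (V3) and SAM(V4), where V and a number name the vegetative leaf stage. The inflorescence group held the 2mm Ear, the 5mm Ear, the 1cm Ear, the 2mm Tassel, the 1cm Tassel and a library labelled only Inflorescence, whose kind and stage the labels do not give. All plants were of the inbred line B73, untreated, and kept at 25 °C in a greenhouse with days and nights of 12 h each; for ears and tassels the labels give a length and no age. For each tissue, equal amounts of 3 RNA replicates, each from 5 to 10 plants, went into a single pool. Thus 1 library stands for 1 tissue, and the p-values below measure the spread between tissues of a group that also differ in stage, size or sex.

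Levels are given in TPM, a length-corrected share of a library's transcripts, after division by 1 factor for each library, and are called scaled TPM. The factors were 0.95 for SAM(V1), 1.01 for SAM (V3), 1.44 for SAM(V4), 0.826 for the 2mm Ear, 1.09 for the 5mm Ear, 1.03 for the 1cm Ear, 1.69 for the 2mm Tassel, 0.48 for the 1cm Tassel and 0.985 for Inflorescence. The tassels therefore had the lowest and the highest factor of the 9 libraries. The deposited identifiers could not be paired with gene names: of 50738 identifiers, 0 matched the reference table for Zm-B73-REFERENCE-NAM-5.0. Entries are therefore described by identifier, with no function given, and the tissue labels could not be checked against marker genes such as those of meristem, leaf or pollen. Nor could the lists of floral, meristem and leaf genes drawn up for the comparison be measured.

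The SAM and inflorescence libraries did not differ detectably in 4 measures of the whole library. Entries at 1 TPM or more numbered 17552 ± 1095 (SD, n = 3) in SAM and 17103 ± 1446 (SD, n = 6) in inflorescence, with an exact permutation p of 0.69. The share of the listed TPM in the 10 most abundant entries was 12.6% ± 2.40 (SD, n = 3) for SAM and 15.3% ± 5.12 (SD, n = 6) for inflorescence (exact permutation p = 0.429). The share of the listed TPM in entries with the prefix ZmLnc was 16.7% ± 2.64 (SD, n = 3) in SAM and 19.9% ± 5.57 (SD, n = 6) in inflorescence (exact permutation p = 0.405). The listed TPM sum had p = 0.262 in the same exact two-sided test (p = 0.0357, before adjustment, without the 2mm Tassel). After Benjamini-Hochberg adjustment over these 4 measures, each p was between 0.571 and 0.69, and the smallest p that 6 against 3 libraries allow is 0.0238. With that limit, 1 measure alone could not have reached an adjusted p under 0.05. The adjusted test could therefore not have found a difference in 1 measure only. 

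Between vegetative SAM and inflorescence, 129 entries were higher and 121 lower in inflorescence, out of 19487 tested with limma. These are 0.662% and 0.621% of the entries tested, 1.28% together. Higher and lower here mean an adjusted p (Benjamini-Hochberg) below 0.05 with a log2 fold change of 1 or more in either direction. The fold change is on the scale of log2(scaled TPM + 1), which understates the change of low entries. The median log2 fold change of all tested entries was 0.01. Among the higher entries the median log2 fold change was 1.52 and the highest 5.40, with 10 entries at 3 or more. Among the lower entries the median was -1.54 and the lowest -4.06, with 9 entries at -3 or less. The SAM and inflorescence values did not overlap for 128 of the 129 higher and 121 of the 121 lower entries, while over all tested entries such separation was found for 7.71% (higher) and 6.2% (lower). The calls rest on these same values, so the separation adds no support to them. Entries named below for the largest changes were also chosen for it. The higher set rose from a median of 1.18 scaled TPM in SAM to 6.48 in inflorescence, and the lower set fell from 7.49 to 1.18 scaled TPM. Over all tested entries these medians were 4.21 in SAM and 4.38 in inflorescence. A mean of 100 scaled TPM was reached in inflorescence by 1 of the 129 higher entries, against 312 of all 19487. In SAM it was reached by 4 of the 121 lower entries, against 389 of all 19487. In bulk tissue, fewer cells of a type and less RNA per cell cannot be told apart.

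**Figure D1:**
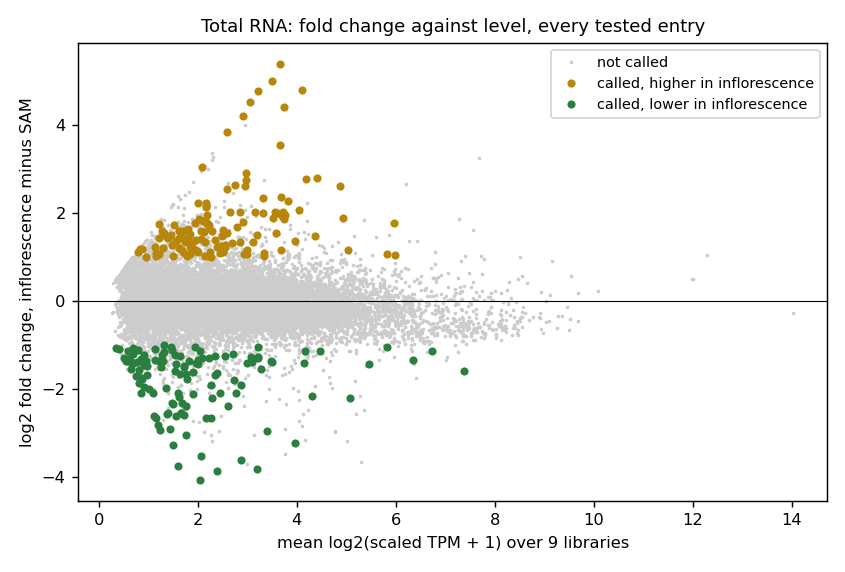
Each point is 1 of 19487 tested entries, with its mean log2(scaled TPM + 1) over the 9 libraries on the x axis and its log2 fold change, inflorescence minus SAM, on the y axis. Gold points are the 129 called higher in inflorescence, green points the 121 called lower, and grey points were not called; the highest fold changes, up to 5.40, lie at intermediate levels.

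The number of calls depended on single libraries, rising without a tassel and falling without any other. Without the 1cm Tassel 237 entries were higher and 355 lower, and without the 2mm Tassel 279 were higher and 253 lower. These sets held 126 and 128 of the 129 higher and 120 and 119 of the 121 lower entries. Leaving out a SAM library reduced the counts to 28 higher and 19 lower without SAM(V1), 30 and 48 without SAM (V3), and 64 and 79 without SAM(V4). Leaving out the 1cm Ear gave 54 higher and 37 lower. For the 2mm Ear these were 88 and 58, for the 5mm Ear 59 and 40, and for Inflorescence 72 and 57. On TPM as deposited, with no factor, 145 were higher and 299 lower, and the median of all entries moved to -0.15; 76 of the 129 and 105 of the 121 were among them. After quantile normalization the counts were 121 and 129, with 115 and 113 of the original entries. With all 26 libraries in the fit 135 were higher and 103 lower, and 73 of the 129 and 60 of the 121 were among them.

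The transcripts with the largest rise were close to absent from the SAM at every stage and present in every ear and tassel. Zm00001d018667 was at 0.0211 scaled TPM in SAM(V1), 0.0396 in SAM (V3) and 0.0417 in SAM(V4). In inflorescence the same gene model was at 50.2 scaled TPM in the 2mm Ear, 61.9 in the 5mm Ear, 52.4 in the 1cm Ear, 30.5 in the 2mm Tassel, 33.6 in the 1cm Tassel and 36.6 in Inflorescence. The groups did not overlap, and the 3 ears were above both tassels, with a log2 fold change of 5.40 (SE 0.22, limma adjusted p = 5.22e-06). Zm00001d034045 was at 0.0526, 0.109 and 0.202 scaled TPM in SAM(V1), SAM (V3) and SAM(V4). Its inflorescence levels were 54.8 scaled TPM in the 2mm Ear, 37.6 in the 5mm Ear, 35.1 in the 1cm Ear, 32.3 in the 2mm Tassel, 30.3 in the 1cm Tassel and 24.8 in Inflorescence. All 6 lay above the SAM values, with a log2 fold change of 5.00 (SE 0.209, limma adjusted p = 5.22e-06). Both calls held in each of the 21 alternatives tried.

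A pattern of near absence in SAM, under 0.5 scaled TPM in all 3 libraries, and at least 5 scaled TPM in all 6 inflorescence libraries was met by 5 entries, a pattern set after the values were seen. All 5 were gene models: the pair above, Zm00001d007949, Zm00001d013259 and Zm00001d045231. Zm00001d007949 was at 0 to 0.0316 scaled TPM in SAM and at 17.6 scaled TPM in the 1cm Tassel to 37.6 in the 5mm Ear. Zm00001d013259 was at 0.0297 to 0.146 scaled TPM in SAM and at 14.8 in the 1cm Tassel to 26.0 in the 2mm Ear. Zm00001d045231 stood apart within the inflorescences, with 7.14 scaled TPM in the 2mm Ear, 12.0 in the 2mm Tassel, 28.0 in the 5mm Ear, 37.7 in the 1cm Ear, 36.0 in the 1cm Tassel and 38.9 in Inflorescence. Its lowest inflorescence levels were thus those of the 2mm Ear and the 2mm Tassel. The opposite pattern, at least 5 scaled TPM in every SAM library and under 0.5 in every inflorescence library, was met by 0 entries. With the 3 ears in place of all 6 inflorescence libraries, 9 entries met the first pattern and 11 the opposite one. All 11 reached at least 1 scaled TPM in a tassel, so the count of 0 depends on the tassels.

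The gene models with the largest fall had some transcript in the 2mm Tassel. Zm00001d003057 was at 33.2 scaled TPM in SAM(V1), 21.2 in SAM (V3) and 38.2 in SAM(V4). It was at 1.44 scaled TPM in the 2mm Ear, 0.578 in the 5mm Ear, 0.39 in the 1cm Ear, 0.0208 in the 1cm Tassel and 0.193 in Inflorescence, but at 13.7 in the 2mm Tassel. The groups did not overlap, but the 2mm Tassel lay far nearer to SAM than the other 5 inflorescences did, with a log2 fold change of -3.86 (SE 0.749, limma adjusted p = 0.0373). This call ended when SAM(V1), SAM (V3), SAM(V4), the 1cm Ear, the 2mm Ear, the 5mm Ear or Inflorescence was left out (limma adjusted p from 0.0635 to 0.159). Zm00001d027957 was at 38.3 scaled TPM in SAM(V1), 57.1 in SAM (V3) and 65.6 in SAM(V4). In inflorescence it was at 5.52 scaled TPM in the 2mm Ear, 0.523 in the 5mm Ear, 1.27 in the 1cm Ear, 8.87 in the 2mm Tassel, 4.35 in the 1cm Tassel and 1.47 in Inflorescence. The 2mm Tassel and the 2mm Ear were again the highest of the inflorescences, and the log2 fold change was -3.82 (SE 0.555, limma adjusted p = 0.0143). Without SAM (V3) or SAM(V1) its adjusted p in limma was 0.0649 or 0.063.

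**Figure D2:**
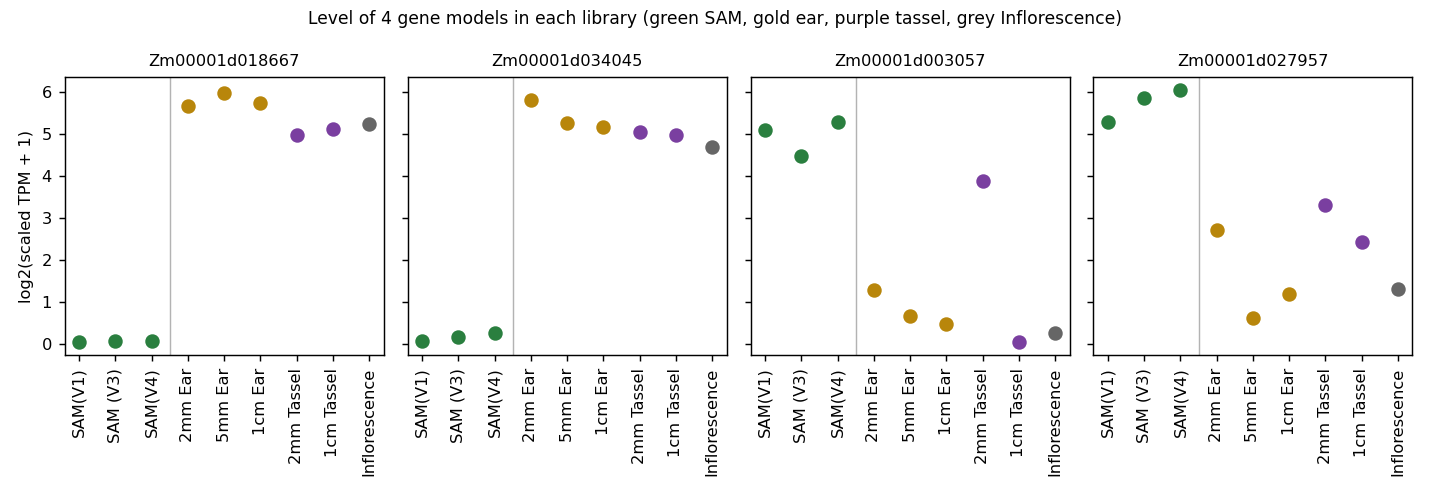
Each panel shows 1 gene model, with the 9 libraries on the x axis and log2(scaled TPM + 1) on the y axis, and 1 point per library (green SAM, gold ears, purple tassels, grey Inflorescence). Zm00001d018667 and Zm00001d034045 lie near 0 in SAM and above 4 in every inflorescence, while Zm00001d003057 is at 13.7 scaled TPM in the 2mm Tassel.

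To place each library between SAM and inflorescence, calls were made from the other 8 libraries. The left-out library was then read on the scale from the SAM mean, 0%, to the inflorescence mean, 100%. Both means were taken without it, while the scale factors of the values read came from all 9 libraries. The position is the median over the called entries. The ears lay at or beyond the inflorescence mean: in the entries called higher, the 2mm Ear was at 99.9% (88 entries), the 5mm Ear at 119% (59 entries) and the 1cm Ear at 102.3% (54 entries). In the entries called lower, they were at 108.7%, 111.9% and 109.5%. Inflorescence was close to the ears, at 91.5% and 100.9%. Each set depends on the library left out: without a tassel it also takes in entries that this tassel had kept from being called, while the sets for the ears were called with both tassels included. On their own sets, the 2mm Tassel was at 50.5% in 279 higher entries and at 53.9% in 253 lower ones, and the 1cm Tassel at 77.7% in 237 higher entries and at 38.0% in 355 lower ones. On its own sets, the 1cm Tassel was nearer to the inflorescence mean than to the SAM mean for 160 of 237 higher entries (67.5%) and 148 of 355 lower ones (41.7%). For the 2mm Tassel these were 143 of 279 (51.3%) and 139 of 253 (54.9%). In the lower entries of their own, different sets, this held for 50 of 57 (87.7%) for Inflorescence, 57 of 58 for the 2mm Ear, 39 of 40 for the 5mm Ear and 37 of 37 for the 1cm Ear.

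The SAM libraries also differed in their median position, each read on its own set of entries. In the entries called higher, SAM(V1) was at 3.04% (28 entries), SAM (V3) at -2.76% (30 entries) and SAM(V4) at 13.03% (64 entries), so all 3 lay near the SAM end. In the entries called lower, SAM(V1) was at -5.53% (19 entries) but SAM (V3) at 43.4% (48 entries) and SAM(V4) at 43.5% (79 entries). The sets without SAM (V3) or SAM(V4) also held entries not called when that library was included. Of their 48 and 79 lower entries, 35 and 45 were among the 121, against 18 of 19 without SAM(V1). The higher medians of SAM (V3) and SAM(V4) thus depend in part on the sets, and no order of stages is drawn from them. The position carries no test.

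A like-for-like reading, added after these positions were seen, used the entries called from the 3 SAM and 3 ear libraries alone, 410 higher and 573 lower in ear. None of the other 3 libraries took part in these calls, and all 3 were read on the same entries, with 0% at the SAM mean and 100% at the ear mean. In the higher entries Inflorescence was at 74.6%, the 1cm Tassel at 70.2% and the 2mm Tassel at 55.3%. Among the lower entries Inflorescence was at 71.9%, the 2mm Tassel at 57.8% and the 1cm Tassel at 36.8%. Both tassels thus had lower medians than Inflorescence, by little for the 1cm Tassel in the higher entries, and Inflorescence too fell short of the ears whose values chose the entries.

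**Figure D3:**
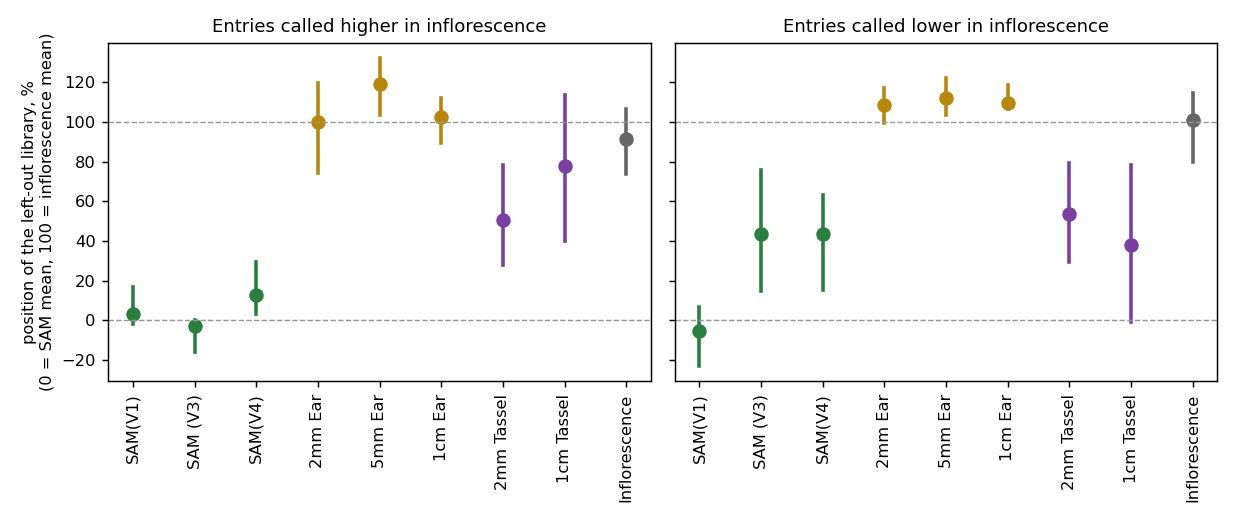
For each library on the x axis, the point is its median position and the bar the lower to upper quartile over the entries called from the other 8 libraries, on a scale where 0% is the SAM mean and 100% the inflorescence mean. Ears and Inflorescence lie near 100% in both panels, while the 2mm Tassel is at 50.5% and 53.9%, each library on a different set of entries.

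Across tested entries, which are not independent replicates, Spearman's rho was 0.9205 to 0.948 within SAM, 0.766 to 0.955 within inflorescence and 0.777 to 0.925 between SAM and inflorescence. The library most like the 2mm Tassel was SAM(V4), with rho = 0.925, close to 0.917 for the 5mm Ear, and its mean rho was 0.903 to the SAM libraries and 0.913 to the ears. The 1cm Tassel was most like Inflorescence (rho = 0.885), and each ear was most like another ear, as each SAM library was most like another SAM library. The tassels also had the extreme scale factors, and the part of that scale in these positions was not tested.

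Ears and tassels were then set against SAM as separate classes in 1 fit of 4 classes. Both differences use the same 3 SAM libraries. From SAM to ear 254 entries were higher (1.3%) and 267 lower (1.37%), 2.67% of those tested together. From SAM to tassel 5 were higher (0.0257%) and 3 lower (0.0154%), 0.0411% together. With 3 ears and 2 tassels these counts have unequal precision. In the 129 higher entries the median log2 difference from SAM was 1.62 in ear and 1.33 in tassel, and it was smaller in tassel than in ear for 98 entries. Among the 121 lower entries the medians were -1.74 in ear and -1.27 in tassel, with the smaller difference in tassel for 115. Because the tassels took part in the calls, their side of SAM in these entries was fixed by the choice. Over the single libraries, the 2mm Tassel was nearer to SAM than every ear in 80 of the 129 higher (62.0%) and 93 of the 121 lower entries (76.9%). Over all tested entries with a fold change of the same sign these shares were 41.2% and 44.4%. For the 1cm Tassel the shares were 46.5% of the higher and 61.2% of the lower entries, against 39.0% and 44.0%, and for Inflorescence 40.3% and 47.1%, against 34.0% and 37.9%. No test was made of these shares.

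The difference between ear and tassel, which does not involve the SAM libraries except through the shared spread, was called for 5 of 19487 entries (0.0257%), 3 higher in ear (0.0154%) and 2 lower (0.0103%), and for 0 of the 250 entries called between SAM and inflorescence. At an unadjusted p under 0.05 in limma, 29 of the 129 higher entries (22.5%) and 32 of the 121 lower entries (26.4%) differed between ear and tassel, against 1621 of all entries (8.32%). The 250 entries were called on these same libraries. That call depends on the spread within inflorescence, of which the gap between ear and tassel is a part. The 0 of 250 and the shares therefore depend in part on the choice of entries, and nothing is concluded from them. The 5 called entries are named because they are few, and were seen before they were named. Zm00001d033044 was at 32.7 to 59.9 scaled TPM in SAM, 0.361 to 0.883 in the ears and 16.4 and 14.3 in the 2mm and 1cm Tassel, so the tassels lay between SAM and ear (ear minus tassel -3.29 on the log2 scale, SE 0.265, limma adjusted p = 0.0168). Zm00001d020042 was at 4.53 to 5.43 scaled TPM in SAM, at 4.76 and 3.71 in the tassels and at 0.496 to 0.79 in the ears, and the difference between ear and tassel was -1.66 (SE 0.159, limma adjusted p = 0.0343). Its tassel values were thus close to those of SAM. In the other direction, Zm00001d033673 was at 0.0417 to 0.242 scaled TPM in SAM, 0.148 and 1.06 in the 2mm and 1cm Tassel, and 11.6 to 14.6 in the ears (ear minus tassel 3.17, SE 0.251, limma adjusted p = 0.0168). Zm00001d032961 was at 3.03 to 3.64 scaled TPM in SAM, 3.88 and 2.88 in the tassels and 12.9 to 14.3 in the ears, and the transcript entry Zm00001d001548_T001 was at 1.66 to 2.78 in SAM, listed at 0 in both tassels and at 4.45 to 6.15 in the ears. Inflorescence lay outside the range of the ears in all 5, on the side of the tassels at 8.32 scaled TPM for Zm00001d033673, 4.93 for Zm00001d032961, 1.07 for Zm00001d001548_T001 and 2.09 for Zm00001d020042, and on the other side at 0.294 for Zm00001d033044. Without the 1cm Ear, the 2mm Ear or the 5mm Ear no entry was called between ear and tassel (1670, 1003 and 1015 entries at an unadjusted p under 0.05), without the 1cm Tassel 17 were, and without the 2mm Tassel 53 were higher and 361 lower in ear. With a tassel left out the other is a lone library, assumed to vary like the other classes, so these counts describe how that library differed from the ears.

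Of the entries with the prefix ZmLnc, which the sources used here do not explain, 1948 of 7581 were tested. Of these, 19 were higher and 9 lower in inflorescence, 0.975% and 0.462%, against 0.662% and 0.621% of all entries tested. Among gene models 103 were higher and 105 lower of 16535 tested, and among entries with the prefix ZmmRNA 7 were higher and 6 lower of 818. The median log2 fold change was 0.08 for ZmLnc entries and 0.00 for gene models. The groups of names were formed with earlier results of these data known, and no class was tested against the others.

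Among ZmLnc entries, ZmLnc006916 had the largest rise. It was at 0.958 scaled TPM in SAM(V1), 1.11 in SAM (V3) and 1.56 in SAM(V4), then at 20.5 in the 2mm Ear, 24.5 in the 5mm Ear, 28.7 in the 1cm Ear, 6.81 in the 2mm Tassel, 5.13 in the 1cm Tassel and 12.9 in Inflorescence. The groups did not overlap and each ear was above each tassel, with a log2 fold change of 2.76 (SE 0.491, limma adjusted p = 0.0313). ZmLnc006698 was at 4.24, 6.51 and 5.62 scaled TPM in SAM(V1), SAM (V3) and SAM(V4), and at 10.9 in the 2mm Tassel, 20.2 in Inflorescence, 23.4 to 32.8 in the ears and 67.4 in the 1cm Tassel. Here the tassels were the lowest and the highest inflorescence, with a log2 fold change of 2.07 (SE 0.441, limma adjusted p = 0.0452). Each of these calls ended when any 1 of SAM(V1), SAM (V3), SAM(V4), the 1cm Ear, the 2mm Ear, the 5mm Ear or Inflorescence was left out, with limma adjusted p from 0.054 to 0.141 for ZmLnc006916 and from 0.072 to 0.19 for ZmLnc006698.

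The ZmLnc entries with the largest fall were highest in SAM(V1) or about evenly high over the SAM stages. ZmLnc002931 was at 30.0 scaled TPM in SAM(V1), 6.19 in SAM (V3) and 8.31 in SAM(V4), and at 0.0508 in Inflorescence, 0.0917 to 0.156 in the ears, 0.663 in the 2mm Tassel with 1.38 in the 1cm Tassel (log2 fold change -3.25, SE 0.446, limma adjusted p = 0.0116). ZmLnc005756 was at 9.74 scaled TPM in SAM(V1), 10.98 in SAM (V3) and 7.28 in SAM(V4), and at 0.0917 to 0.871 in the ears, 0.589 in Inflorescence, 1.18 in the 2mm Tassel with 1.67 in the 1cm Tassel (log2 fold change -2.54, SE 0.26, limma adjusted p = 0.00365). In both entries the tassels were the highest of the 6 inflorescences and below every SAM value. Both calls held whichever library was left out.

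The 17 total RNA libraries of other organs, which had no part in the calls, showed where else the called transcripts were present. The 121 entries that fell from SAM to inflorescence had a median level of 5.85 scaled TPM in stem, close to the 6.83 of SAM and above the 0.874 of inflorescence. The same median was 1.89 scaled TPM in leaf, 1.84 in root, 1.07 in embryo and 0.343 in endosperm, while over all tested entries it was 3.67 to 4.75 in every organ class. At least 1 scaled TPM was reached by 90 of the 121 in stem (74.4%), by 69 in root (57.0%) and by 64 in leaf (52.9%), in each case a smaller share than the 84.7%, 80.1% and 76.7% of all tested entries. The single library with the highest level was a SAM library for 44 of the 121 (36.4%, against 9.1% of all tested entries). It was a leaf for 46 (38.0% against 43.4%), a root for 14 (11.6% against 7.94%) and a stem library for 8 (6.61% against 5.88%). For the 129 entries that rose, the highest library was an inflorescence for 61 (47.3% against 16.6%) and a leaf for 51 (39.5% against 43.4%), and the median level was 1.41 to 1.89 scaled TPM in the 5 other organ classes. Both sets were chosen by their SAM and inflorescence values. The share highest in SAM among the 121, and in inflorescence among the 129, therefore follows in part from that choice. Less than 1 scaled TPM in all 17 other libraries was seen for 11 of the 129 (8.53%) and 6 of the 121 (4.96%), against 2.56% of all tested entries.

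**Figure D4:**
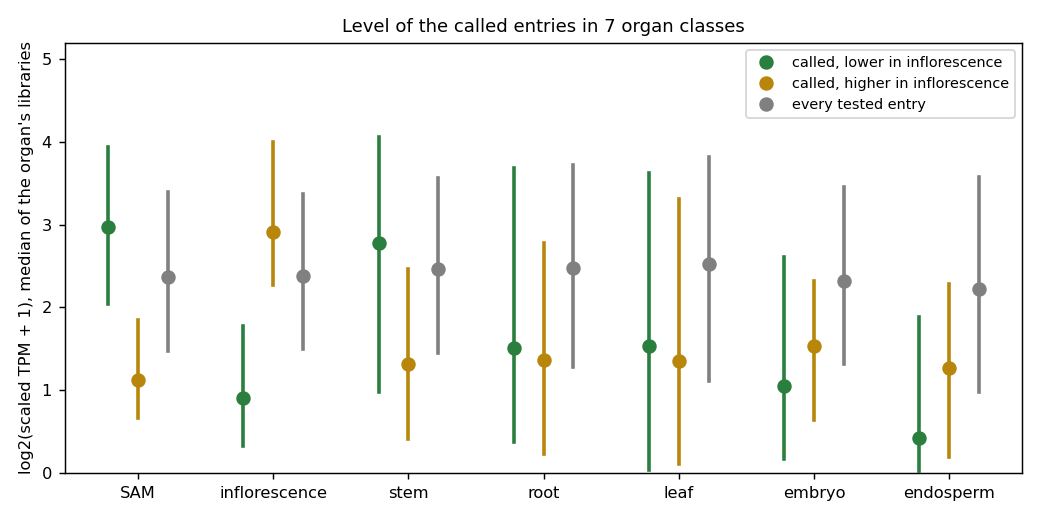
For 7 organ classes on the x axis, points are the median and bars the quartiles, over the entries of a set, of the level in that organ (median of its libraries, as log2(scaled TPM + 1)). Green entries were called lower in inflorescence, gold ones higher, and grey is every tested entry; green lies at 5.85 scaled TPM in stem and at 1.89 in leaf.

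Several of the entries that were near absent from SAM were also present in leaves that belong to the reproductive shoot, the husk leaf that wraps the ear and the ear leaf that subtends it. The factors were 0.31 for the husk leaf and 0.277 for the ear leaf, within 0.198 to 0.478 over all leaves. Scaled TPM in leaves is therefore above the deposited TPM. Zm00001d034045 was at 34.5 scaled TPM in the husk leaf and 17.6 in the ear leaf, and at most 1.11 in the other 15 libraries outside the contrast. Zm00001d013259 was at 26.8 scaled TPM in the husk leaf and 10.1 in the ear leaf, with at most 2.63 elsewhere. Zm00001d018667 was at 17.4 scaled TPM in the husk leaf but at 0.108 in the ear leaf, and Zm00001d007949 at 10.2 and 2.13. Zm00001d045231 was the exception of the 5, with 0.129 scaled TPM in the husk leaf and 0.362 in the ear leaf. For the whole set of 129 this was weaker: of the 96 entries with at least 1 scaled TPM in some leaf, 22 (22.9%) had their highest leaf level in the husk leaf, against 18.1% of all tested entries, and 11 (11.5%) in the ear leaf, against 12.9%.

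The named entries that fell differed in their levels in the other organs. Zm00001d003057 was at 10.9 scaled TPM in the stem and 17.2 in the internode, listed at 0 in both roots and at no more than 0.0745 in the embryo, the endosperm and 11 leaves. Zm00001d027957 was also in stem and internode, at 73.1 and 36.9 scaled TPM, and in leaves, from 0.377 over a median of 39.8 to 93.7 in the husk leaf. The first leaves, at 0.377 and 0.415 scaled TPM, were the exception among leaves, and both roots were at 0.299 and 2.11. ZmLnc002931 was higher in root, at 80.6 and 158 scaled TPM, than in any SAM library, and reached 289 in the topmost leaf with the letter L.

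RNA bound by ribosomes, measured in separate libraries of the same tissues, gave a second readout of the difference. It had 2 SAM libraries (V3 and V4) and 4 inflorescence libraries (5mm Ear, 1cm Ear, 1cm Tassel and Inflorescence). Of 20414 entries tested there, limma called 150 higher in inflorescence and 99 lower (0.735% and 0.485%, 1.22% together). Of the 129 entries that rose in total RNA, 101 were tested in ribosome-bound RNA, and 42 of these were called higher and 0 lower. The other direction was alike: of the 121 that fell, 102 were tested, and 35 were called lower and 0 higher. The 42 shared entries were 28.0% of the 150 called higher in ribosome-bound RNA, and the 35 shared ones 35.4% of the 99 called lower. By sign alone, 100 of the 101 were above 0 and 102 of the 102 below 0, where 50.1% and 49.9% of all ribosome-bound entries lay on that side. The tissues are the same in both readouts, so the second readout adds no replicate of a stage. Without SAM (V3) or SAM(V4) the ribosome-bound counts were 14 higher and 4 lower, or 16 and 2, each with a lone SAM library assumed to vary like the inflorescences. Without the 1cm Tassel they were 325 and 264. They were 38 and 23 without the 1cm Ear and 91 and 55 without Inflorescence; without the 5mm Ear 102 were higher and 50 lower.

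The 4 gene models named above for their rise or fall changed in the same direction in ribosome-bound RNA, and each was called there. The sizes of the fold changes cannot be compared between the readouts. Ribosome-bound RNA had no library of SAM(V1), the 2mm Ear or the 2mm Tassel. Its listed TPM also had a higher sum for each library, so the 1 added before the log weighed less. Zm00001d018667 was at 0.152 scaled TPM in ribosome-bound RNA of SAM (V3) and 0.189 in SAM(V4), and at 235 in the 5mm Ear, 258 in the 1cm Ear, 132.5 in the 1cm Tassel and 101.5 in Inflorescence (log2 fold change 7.18, SE 0.383, limma adjusted p = 0.000718). Zm00001d034045 was at 0.812 and 3.17 scaled TPM in SAM (V3) and SAM(V4), and at 108 in Inflorescence to 287 in the 1cm Ear (log2 fold change 6.03, SE 0.445, limma adjusted p = 0.00261). Both were higher in the ears than in the 1cm Tassel, as in total RNA. Zm00001d003057 was at 32.2 and 68.0 scaled TPM in the SAM libraries and at 0.195 to 1.17 in inflorescence (log2 fold change -4.95, SE 0.374, limma adjusted p = 0.00268). Zm00001d027957 was at 177 and 218 scaled TPM in SAM and at 2.31 in the 5mm Ear, 4.54 in the 1cm Ear, 5.24 in Inflorescence and 17.9 in the 1cm Tassel (log2 fold change -4.86, SE 0.612, limma adjusted p = 0.0185). In both readouts the 1cm Tassel had the highest level of these 4 inflorescences for Zm00001d027957.

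**Figure D5:**
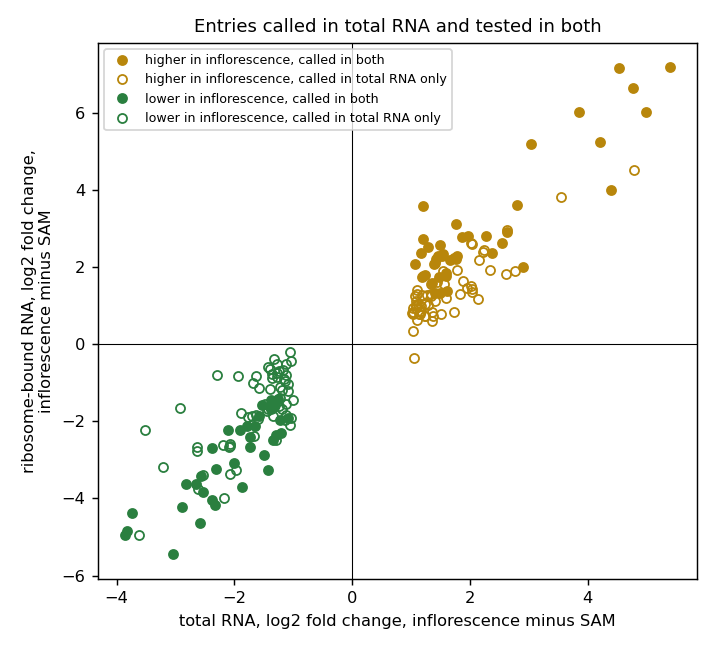
Each point is 1 entry called in total RNA and tested in both readouts, with its log2 fold change, inflorescence minus SAM, in total RNA on the x axis and in ribosome-bound RNA on the y axis. Filled points were called in both, gold ones higher (42) and green ones lower (35), open points in total RNA only, and 1 of the 101 higher entries lies below 0 on the y axis.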

How the data were processed

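The authors gave both total and ribosome-bound RNA as TPM. Without role or order, the submitters' processing notes list B73 RefGen_v4, cutadapt 1.9.1, SAMtools 1.9, RSEM, StringTie, HISAT and Bowtie 1.1.2. TPM keeps no read depth: depth is unknown, and values carry no counting interval. The listed total RNA entries summed to 165539 to 395863 TPM in the 9 libraries, so each library was divided by its median ratio to the geometric mean over 12688 entries at 1 TPM or more in all 9; libraries of other organs were put on the same scale. Ribosome-bound libraries were scaled likewise. A line that held 2 records was split. Entries at 1 scaled TPM or more in at least 2 libraries were tested with limma 3.58.1 in R 4.3.3, with a mean-variance trend, on log2(scaled TPM + 1), using the compared libraries only; the steps were tested on simulated data. Library measures used exact permutation tests (scipy 1.17.1). Named entries were the 2 with the largest called change per direction, without overlap and with a mean of at least 5 scaled TPM, among gene models and among ZmLnc entries; others are said to be chosen after their values were seen. The comparison, the gene lists and the tests were chosen with earlier results of these data known. Of the called entries, 0 had values identical to another entry. Replicate numbers follow accession order and pair no samples. Small RNA, circular RNA and protein pair data were not used here.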

Additional observations from a re-analysis of the deposited data

Results flagged for a closer look

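Among 12 sets of 6 inflorescence values examined (8 named entries and 4 library measures), 1 held a library far from the others, where chance gives about 1 in 20. The 2mm Tassel lay above the other 5 inflorescences for Zm00001d003057, at 13.7 scaled TPM against 0.0208 to 1.44. Its gap to the nearest of them was 0.673 of the range of the 6 values on the log2(scaled TPM + 1) scale, above the critical value of 0.625.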

How the results depend on the processing

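Of the named entries, Zm00001d018667 and Zm00001d034045 were called in all 21 alternatives; the call ended in 10 for Zm00001d003057 and ZmLnc006916, in 11 for ZmLnc006698, in 3 for Zm00001d027957, in 2 for ZmLnc002931 and in 1 for ZmLnc005756, and no direction reversed. Counts of entries called higher and lower between SAM and inflorescence (129 and 121) moved as follows; the cause was not tested. They were 310 higher with a pseudocount of 0.1, 33 and 51 with a pseudocount of 5, 60 and 53 with no filter, 70 and 47 with a mean of at least 5 TPM, and 299 lower on TPM as deposited. With ears alone they were 410 and 573, with tassels alone 4 and 0 (1368 entries at an unadjusted p under 0.05 in limma), and without both tassels, an alternative chosen after seeing the data, 366 and 475. Leaving out 1 library gave 28 to 279 higher and 19 to 355 lower. Ear minus tassel (3 higher, 2 lower) gave 16 and 58 on TPM as deposited and 4 lower after quantile normalization, with 0 to 53 and 0 to 361 when 1 library was left out. In ribosome-bound RNA 65 were lower with a pseudocount of 0.1, and leaving out 1 library gave 14 to 325 higher and 2 to 264 lower. The difference in entries at 1 TPM or more was -945 to 138 when 1 library was left out, positive only without SAM(V4), and that in the listed TPM sum was -81910.4 to -26386; the measures of share kept their sign. No paired analysis was possible because replicate numbers were given in accession order and pair no samples.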
